A study of Homo sapiens with 16 samples.

Results

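MHC class I molecules display peptides from inside the cell to CD8+ T cells. A heavy chain (HLA-B and HLA-C, which present peptides broadly, and HLA-E and HLA-F, which are less variable and are also read by NK cell receptors) pairs with the light chain B2M in the endoplasmic reticulum. The transporter made of TAP1 and TAP2 brings in peptides cut by the proteasome, and tapasin (TAPBP) holds the empty heavy chain at the transporter until a peptide fits. NLRC5 is the class I transactivator, which is recruited to a conserved set of promoter elements of class I genes. These promoters also carry elements for interferon regulatory factors (IRF) and NF-kappa B, and many of the genes are induced by interferon.

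The members examined were these 9 genes, HLA-B, HLA-C, HLA-E, HLA-F, B2M, TAP1, TAP2, TAPBP and NLRC5, found by symbol among the 23354 genes of the count table. All 9 passed the filter on low counts, as did 14215 genes in total. The RNA-seq covered 2 human multiple myeloma (MM) cell lines, the dexamethasone (Dex)-sensitive MM1S and the Dex-resistant MM1R, each a single line. The authors give MM1S as the parental counterpart of MM1R, and describe expression of the glucocorticoid receptor as absent in MM1R. Both lines were treated for 48 h, with vehicle (Veh), with TAK-981 at 0.1 μM (TAK), with Dex at 1 μM or with these doses combined (combo). TAK-981 blocks the E1 enzyme that activates SUMO, a small protein attached to other proteins, and Dex is a synthetic glucocorticoid. There were 2 libraries in each of the 8 groups, 16 in total. Duplicates were not stated to come from separate cultures, so the p-values measure the spread between these libraries, which may be technical.

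Total counts per library ran from 15707587 to 24796539. Levels are CPM, a gene's share of its library after TMM scaling between libraries. They come from bulk RNA, in which fewer cells of a kind and less RNA per cell cannot be told apart. The labels call the lines myeloma cells and also B lymphoblasts. The 8 plasma cell markers summed to between 3370 and 6135 CPM across the libraries, whereas the 4 B cell markers summed to at most 0.557 CPM. Of these, PAX5 reached at most 11 counts in any library and MS4A1 at most 2. The 4 myeloid markers summed to at most 0.543 CPM. The 4 T or NK cell markers summed to between 0.619 and 5.76 CPM, with CD3D and NKG7 at 0 in all 16 libraries. Most of that sum was CD3E, which reached 5.3 CPM, while CD2 reached at most 13 counts. The 5 markers of stroma or epithelium summed to between 0.933 and 13.6 CPM, the highest of the lists other than plasma cell. PECAM1 in that list reached 12.7 CPM.

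In vehicle-treated MM1S cells, per kilobase of the length given in the table (RPKM), B2M was the most abundant member at 795 ± 1.74 RPKM (mean ± SD, n = 2). HLA-B followed at 161 ± 5.73, TAPBP at 144 ± 3.22, HLA-E at 115 ± 4.76 and HLA-C at 98.7 ± 5.03 RPKM. TAP1 was at 29.0 ± 0.936, TAP2 at 14.7 ± 0.516, HLA-F at 4.26 ± 0.0968 and NLRC5 at 1.08 ± 0.00467 RPKM. B2M thus had a higher RPKM than 99.8% of the genes tested, and NLRC5 than 21.1%. In every library B2M stood at 1.68 to 2.71 times the summed RPKM of the 4 heavy chains. Together the 9 genes made up 0.319% ± 0.0042 of counts in MM1S vehicle and 0.312% ± 0.005 in MM1R vehicle libraries (SD, n = 2).

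The class I heavy chains are near-identical paralogs and differ between people, and the reads were counted against the hg19 reference. How reads that fit several of them were assigned is not given in the sources used here, so the split of counts among HLA genes is uncertain. In the table the interval of HLA-B (chr6:31237743-31324989, minus strand) runs over that of HLA-C (chr6:31236526-31239913, minus strand). HLA-F (chr6:29691117-29706966, plus strand) overlaps HLA-F-AS1 on the other strand. TAP1 (chr6:32812986-32821748, minus strand) overlaps PSMB8-AS1 on the other strand, and TAP2 (chr6:32781500-32806547, minus strand) overlaps HLA-DOB on its own strand. Whether counting used the strand is not stated, so reads of such pairs cannot be told apart. HLA-E (chr6:30457183-30461982, plus strand), TAPBP (chr6:33267472-33282164, minus strand), B2M (chr15:45003685-45010357, plus strand) and NLRC5 (chr16:57023459-57117436, plus strand) overlapped no other gene of the table (hg19).

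**Figure D1:**
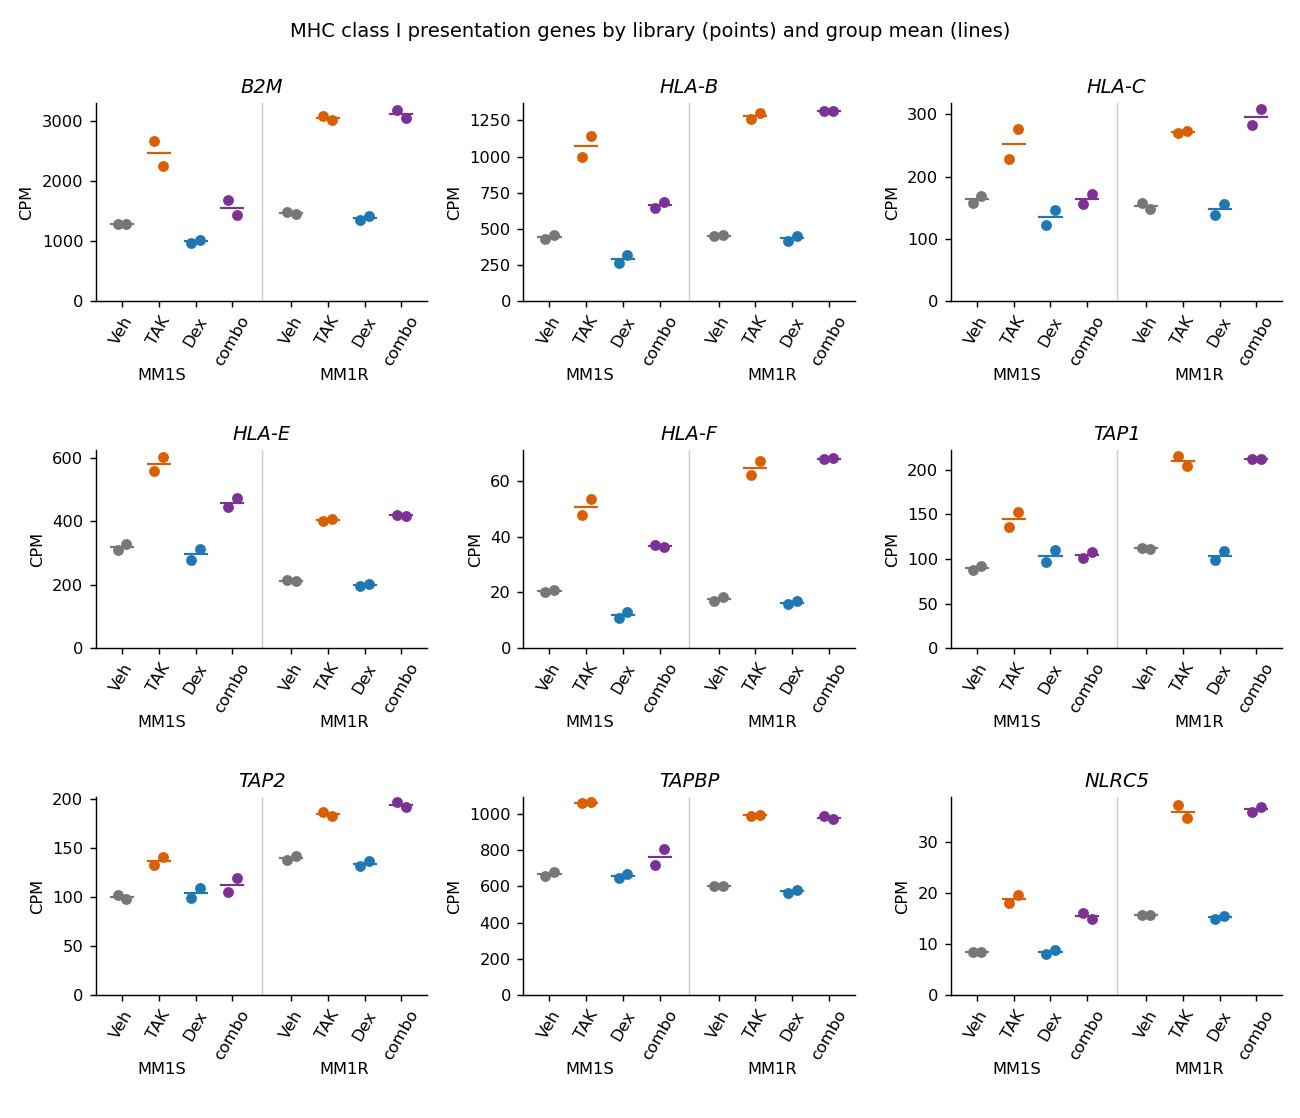
Level of each of the 9 genes in CPM (vertical axis, from 0) in the 16 libraries, by cell line and treatment. Points are libraries and lines are group means; in each gene both TAK libraries lie above both vehicle libraries of the same line.

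The first question was how SUMO E1 inhibition moved these genes. TAK-981 raised all 9 in both lines. HLA-F, HLA-B and NLRC5 rose the most, by 2.46-, 2.41- and 2.22-fold in MM1S and by 3.67-, 2.82- and 2.29-fold in MM1R. TAP2 rose the least, by 1.36- and 1.32-fold. In MM1S 9 of 9 members were called higher, where 25.2% of all genes tested were, and the median log2 fold change was 0.86 against 0.04 over all genes. In MM1R 9 of 9 were called higher against a background of 25.8%, with a median of 0.92 against 0.0043. The members' share of all counts was 0.574% ± 0.017 in MM1S and 0.637% ± 0.0015 in MM1R under TAK-981.

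Among the heavy chains, HLA-B was at 433 and 456 CPM in the 2 MM1S vehicle libraries and at 999 and 1141 CPM under TAK-981, which is 1.27 (SE 0.080, adjusted p = 3.67e-10) on the log2 scale. In MM1R it went from 450.3 and 457 to 1259 and 1299.8 CPM, a log2 fold change of 1.50 (SE 0.080, adjusted p = 6.34e-11). Treated and vehicle libraries did not overlap in either line, which held for all 9 members. Over all genes tested, both TAK libraries lay above both vehicle libraries in 37.5% in MM1S and 40.3% in MM1R, so with 2 libraries a group such separation is common. HLA-C was at 158 and 169 CPM in MM1S vehicle and 229 and 277 CPM in MM1S TAK libraries (log2 fold change 0.63, adjusted p = 2.79e-05). In MM1R its levels were 158 and 147 CPM with vehicle and 271 and 273 CPM with TAK-981 (log2 fold change 0.83, adjusted p = 1.19e-06).

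HLA-E, the ligand of NKG2A and NKG2C receptors, was at 309.6 and 328 CPM in MM1S vehicle libraries and at 557 and 603 CPM with TAK-981 (log2 fold change 0.86, adjusted p = 2.36e-09). In MM1R it lay lower at 216 and 211 CPM with vehicle and reached 401 and 408 CPM with TAK-981 (log2 fold change 0.92, adjusted p = 1.42e-09). HLA-F had the lowest level of the heavy chains and the largest rise. It went from 20.2 and 20.9 to 47.7 and 53.4 CPM in MM1S, which is 1.30 (SE 0.087, adjusted p = 6.78e-10) on the log2 scale. In MM1R it went from 17.0 and 18.2 to 62.0 and 67.2 CPM, a log2 fold change of 1.88 (SE 0.086, adjusted p = 5.67e-12). The 4 vehicle libraries of HLA-F rested on 407 to 442 counts each.

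B2M was at 1283 and 1279 CPM in MM1S vehicle and at 2668 and 2252 CPM in MM1S TAK libraries, which is 0.94 (SE 0.075, adjusted p = 6.83e-09) on the log2 scale. In MM1R the corresponding levels were 1475 and 1448 and 3085 and 3011 CPM (log2 fold change 1.06, SE 0.075, adjusted p = 1.97e-09). The first of the MM1S TAK libraries had more B2M and less HLA-B, HLA-C, HLA-E and HLA-F than the second, so B2M per summed heavy-chain RPKM was 2.33 in one and 1.73 in the other. Both MM1S vehicle libraries, at 2.17 and 2.04, lay between these. In MM1R this ratio was 2.70 and 2.69 with vehicle and 2.47 and 2.35 with TAK-981, without overlap; no test was made of it.

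Of the peptide loading members, TAP1 went from 88.0 and 92.1 to 136 and 153 CPM in MM1S (log2 fold change 0.68, adjusted p = 5.3e-07) and from 113 and 111 to 215 and 204 CPM in MM1R (log2 fold change 0.91, adjusted p = 1.21e-08). Its partner TAP2 moved less. It went from 102 and 97.5 to 132 and 141 CPM in MM1S (log2 fold change 0.45, adjusted p = 2.83e-05) and from 138 and 141 to 187 and 183 CPM in MM1R (log2 fold change 0.40, adjusted p = 6.53e-05). TAPBP went from 659 and 681 to 1058 and 1066 CPM in MM1S (log2 fold change 0.66, adjusted p = 1.42e-08) and from 604 and 601 to 989 and 996 CPM in MM1R (log2 fold change 0.72, adjusted p = 6.4e-09). The transactivator NLRC5 was low in both lines, with 166 and 180 counts in the MM1S vehicle libraries. It went from 8.46 and 8.51 to 18.2 and 19.6 CPM in MM1S (log2 fold change 1.15, SE 0.10, adjusted p = 1.14e-08) and from 15.7 and 15.7 to 37.3 and 34.6 CPM in MM1R (log2 fold change 1.19, SE 0.081, adjusted p = 1.24e-09).

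**Figure D2:**
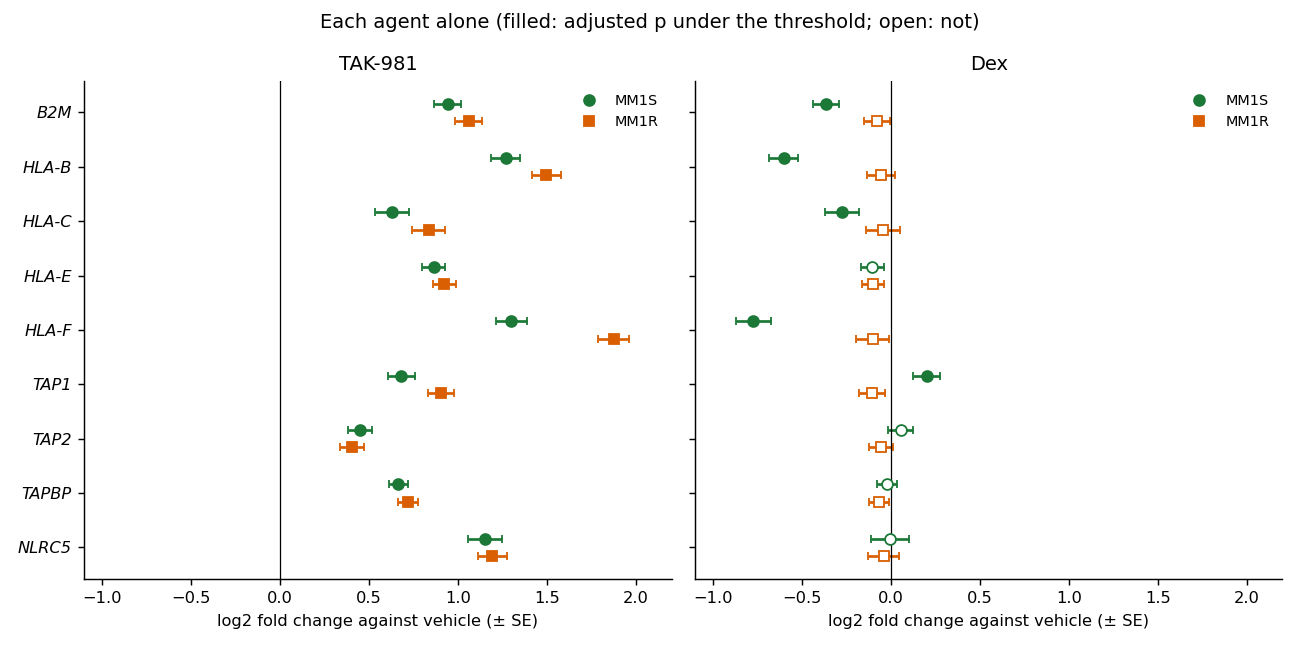
Log2 fold change of each gene (horizontal axis, ± SE) with TAK-981 (left) and Dex (right) against vehicle, in MM1S (circles) and MM1R (squares). Filled symbols passed the adjusted p threshold of 0.05; with TAK-981 all 18 values lie above 0, and with Dex none of the MM1R values is filled.

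The response to TAK-981 was compared between lines by an interaction term. HLA-F passed, with a rise larger in MM1R than in MM1S by 0.58 (SE 0.12, adjusted p = 0.011), and 1 of 9 members was called against a background of 3.19% called in this direction. This call was lost without the second MM1S vehicle (adjusted p = 0.0569), the first MM1R vehicle (adjusted p = 0.0745) or the second MM1R TAK library (adjusted p = 0.0682). For the other 8 members the difference was not called, and its 95% interval ran from −0.0047 to 0.46 for HLA-B and from 0.0043 to 0.44 for TAP1, whose adjusted p was 0.227. For NLRC5 the interval was −0.23 to 0.31 and for TAPBP −0.11 to 0.22.

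Elsewhere in the class I pathway the calls went both ways, as they did over all genes tested. Of those, 25.2% were called higher and 23.7% lower in MM1S, and 25.8% higher and 27.6% lower in MM1R. The 10 other genes of peptide loading and trimming had a median log2 fold change of −0.22 in MM1S and −0.25 in MM1R with TAK-981, with 2 called higher and 5 lower in MM1S and 2 higher and 6 lower in MM1R. The tapasin-related editor TAPBPL rose by 0.74 (adjusted p = 1.36e-07) in MM1S and 0.48 (adjusted p = 3.47e-05) in MM1R. The trimming peptidase ERAP2 rose by 0.51 (adjusted p = 2.71e-06) and 0.72 (adjusted p = 3.29e-08). The chaperone calnexin (CANX) had log2 fold changes of −0.44 (adjusted p = 1.24e-06) and −0.48 (adjusted p = 4.08e-07), the disulfide isomerase PDIA3 of −0.51 (adjusted p = 4.32e-06) and −0.79 (adjusted p = 2.81e-08), and the translocon subunit SEC61A1 of −0.45 (adjusted p = 1.22e-06) and −0.48 (adjusted p = 5.25e-07).

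Among the 12 genes of peptide supply, 4 were called higher and 4 lower in each line, and the list medians were 0.04 (MM1S) and −0.019 (MM1R). The immunoproteasome subunit PSMB9 rose by 0.57 (adjusted p = 0.000171) in MM1S and 0.69 (adjusted p = 1.37e-05) in MM1R, and the aminopeptidase LAP3 by 0.30 (adjusted p = 0.00027) and 0.61 (adjusted p = 6.64e-08). The constitutive proteasome subunit PSMB6, whose place PSMB9 takes, fell with log2 fold changes of −0.35 (adjusted p = 0.00132) and −0.69 (adjusted p = 7.49e-07). PSMB7 fell likewise with −0.31 (adjusted p = 0.00157) and −0.54 (adjusted p = 4.21e-06), and the proteasome assembly factor POMP with −0.38 (adjusted p = 0.000535) and −0.47 (adjusted p = 4.09e-05).

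Of the 14 regulators of class I transcription, 6 were called higher and 2 lower in MM1S, and 6 higher and 3 lower in MM1R, with medians of 0.16 and 0.02. IRF1, which binds class I promoters, rose by 0.64 (adjusted p = 2.55e-07) in MM1S and 0.70 (adjusted p = 7.56e-08) in MM1R. Smaller rises were seen for IRF2, at 0.24 (adjusted p = 0.00623) and 0.31 (adjusted p = 0.000801), and for the Y box factor subunit NFYC, at 0.43 (adjusted p = 0.000166) and 0.30 (adjusted p = 0.0028). RFXAP, a subunit of the X box factor, fell in MM1S with a log2 fold change of −0.66 (adjusted p = 0.00122), and the histone methyltransferase EHMT2 fell in MM1R with −0.33 (adjusted p = 0.000766).

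All 19 tested genes of a list of 20 interferon-induced genes outside antigen presentation were called higher in both lines, with a median log2 fold change of 2.76 in MM1S and 4.15 in MM1R. Of all genes tested, 25.2% were called higher in MM1S and 25.8% in MM1R. Among the 19, RSAD2 in both lines and IFI44L and IFIT2 in MM1R had too few vehicle counts to pass the filter through those libraries. Their higher calls were thus favoured by the filter and add no support. MX1, a GTPase that restricts viruses, rose by 3.67 (adjusted p = 1.04e-16) in MM1S and 5.05 (adjusted p = 9.31e-19) in MM1R, and XAF1 by 3.95 (adjusted p = 3.31e-13) and 6.39 (adjusted p = 8.74e-15). RSAD2 (viperin) rose from at most 8 counts in any vehicle library by 6.01 and 6.85. In MM1R vehicle libraries IFI44L had 0 counts and IFIT2 had 1 and 3; set at a floor of 3 counts per library they were at least 461- and 24.2-fold higher with TAK-981, and the median stayed 4.15. The log2 changes of the 9 members therefore lay below the median of this list in each line.

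Among 8 tested class I-like genes and B2M partners, 4 were called higher and 1 lower in MM1S, and 4 higher and none lower in MM1R. For these and the lists below, the shares over all genes tested were 25.2% higher and 23.7% lower in MM1S. In MM1R they were 25.8% and 27.6%. MR1, which presents vitamin B metabolites with B2M, rose by 0.65 (adjusted p = 5.8e-07) and 0.74 (adjusted p = 1.26e-07). HLA-G rose by 0.97 (adjusted p = 0.00177) and 1.21 (adjusted p = 0.000175), HLA-H by 1.19 (adjusted p = 7.47e-08) and 1.02 (adjusted p = 3.49e-07), and HLA-L by 1.13 (adjusted p = 2.12e-06) and 0.96 (adjusted p = 6.2e-06). HLA-H and HLA-L are pseudogenes that resemble the class I heavy chains and could share their reads. MICB, an NKG2D ligand that needs no B2M, fell in MM1S with −0.34 (adjusted p = 0.000839). The 8 genes often used as references were lower with TAK-981 on this scale. In MM1S 5 of them and in MM1R 6 were called lower and none higher, with medians of −0.35 and −0.42. Of the 8 plasma cell markers 3 were called higher and 3 lower in MM1S, and 2 higher and 3 lower in MM1R. Of markers of other cell types, CD3E was lower with TAK-981 in both lines (−0.67 and −0.96 on the log2 scale) and PECAM1 higher (0.69 and 0.91), and the part of these shifts in the members' rise was not tested.

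**Figure D3:**
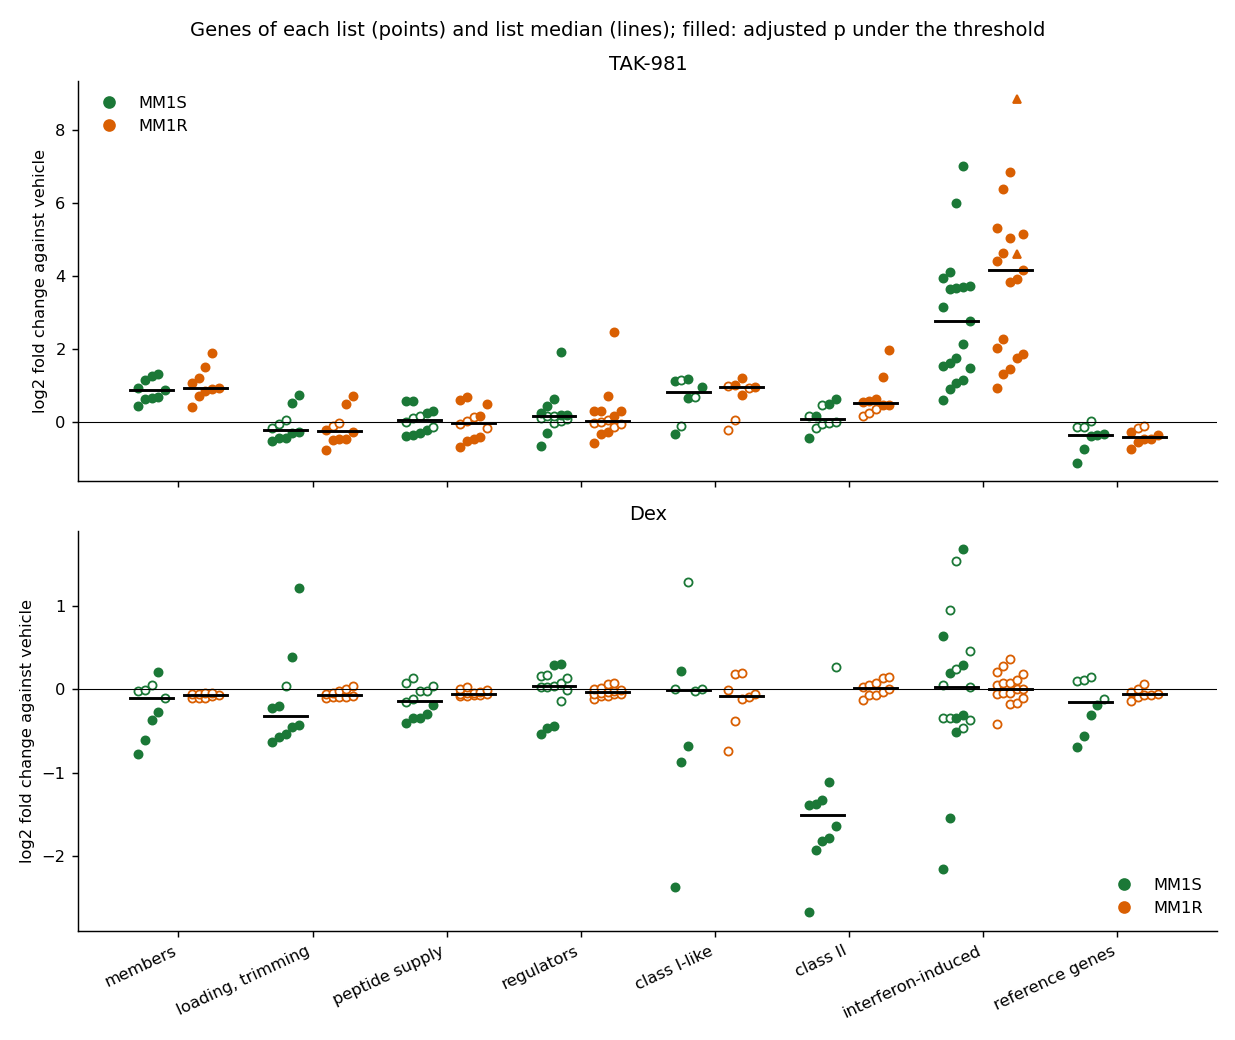
Log2 fold change against vehicle (vertical axis) of the genes tested in each list, with TAK-981 (upper panel) and Dex (lower panel), in MM1S (green) and MM1R (orange); lines are list medians and filled points passed the adjusted p threshold of 0.05. Triangles mark IFIT2 and IFI44L in MM1R at their lower bounds. Under Dex the MM1R points of these genes are not drawn, but the list median line there includes their fitted values. The 9 members sit above 0 with TAK-981 and the class II genes lie at a median of −1.51 with Dex in MM1S.

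The sequence before the starts of the members was read from RefSeq promoter windows (250 bases before to 50 after each annotated start, GRCh38.p14). Windows were held for 7 of the 9 members, with 2 for TAP1; HLA-E and NLRC5 were not matched. Searched on both strands were AANNGAAA, an IRF core; GGGGATT, part of a kappa B element; TGACG, part of the X2 element bound by CREB and ATF factors; and ATTGG, the Y box bound by NF-Y. NLRC5 acts through the X and Y elements. Over all 35116 windows the table held, in which some genes have several, 22.8% had the IRF core, 3.55% the kappa B letters, 24.6% the X2 letters and 34.6% the Y box letters. TGACG followed within 50 bases by ATTGG on the same strand was found in 1.36%. These letters were chosen for class I promoters, and a match is not a bound site.

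The IRF core was found in a window of 7 of the 7 members matched. The X2 and Y pair was found in HLA-B, HLA-C and B2M, with 25, 25 and 26 bases from start to start. The kappa B letters were found in HLA-B, HLA-C and TAPBP. The 6 stretches printed here show how the heavy chains, the light chain and the loading genes differ in these elements. HLA-C is left out, as its window was 88.5% identical to that of HLA-B. They are given 5′ to 3′ on the gene's strand, and capitals mark the matched letters on either strand, which run together where matches overlap; further Y box letters outside these stretches are in the map of motif positions:
HLA-B: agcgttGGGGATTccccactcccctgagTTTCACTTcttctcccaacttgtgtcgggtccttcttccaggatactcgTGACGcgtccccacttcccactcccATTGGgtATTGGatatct
HLA-F: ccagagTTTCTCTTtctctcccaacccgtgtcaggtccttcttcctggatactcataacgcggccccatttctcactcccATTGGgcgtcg
B2M: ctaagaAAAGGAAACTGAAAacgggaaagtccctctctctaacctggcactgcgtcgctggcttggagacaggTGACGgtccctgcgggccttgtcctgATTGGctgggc
TAP1: ggccgcTTTCGATTTCGCTTtcccct
TAP2: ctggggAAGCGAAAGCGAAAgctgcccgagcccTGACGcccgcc
TAPBP: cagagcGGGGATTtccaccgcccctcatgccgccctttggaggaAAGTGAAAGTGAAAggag
The HLA-B stretch is at chr6:31357243-31357362 (minus strand) and carries, in order, the kappa B letters, the IRF core on the other strand, the X2 letters and 2 copies of the Y box letters. The HLA-F stretch at chr6:29723272-29723362 (plus strand) carries the IRF core and the Y box letters, and its window was 79.2% identical to that of HLA-B. The B2M stretch at chr15:44711369-44711478 (plus strand) carries 2 overlapping IRF cores, then the X2 and Y letters. In TAP1 (chr6:32853819-32853844, minus strand), TAP2 (chr6:32838764-32838807, minus strand) and TAPBP (chr6:33314079-33314140, minus strand) the IRF core likewise occurs as 2 overlapping copies. The second TAP1 window held none of the 4 motifs.

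**Figure D4:**
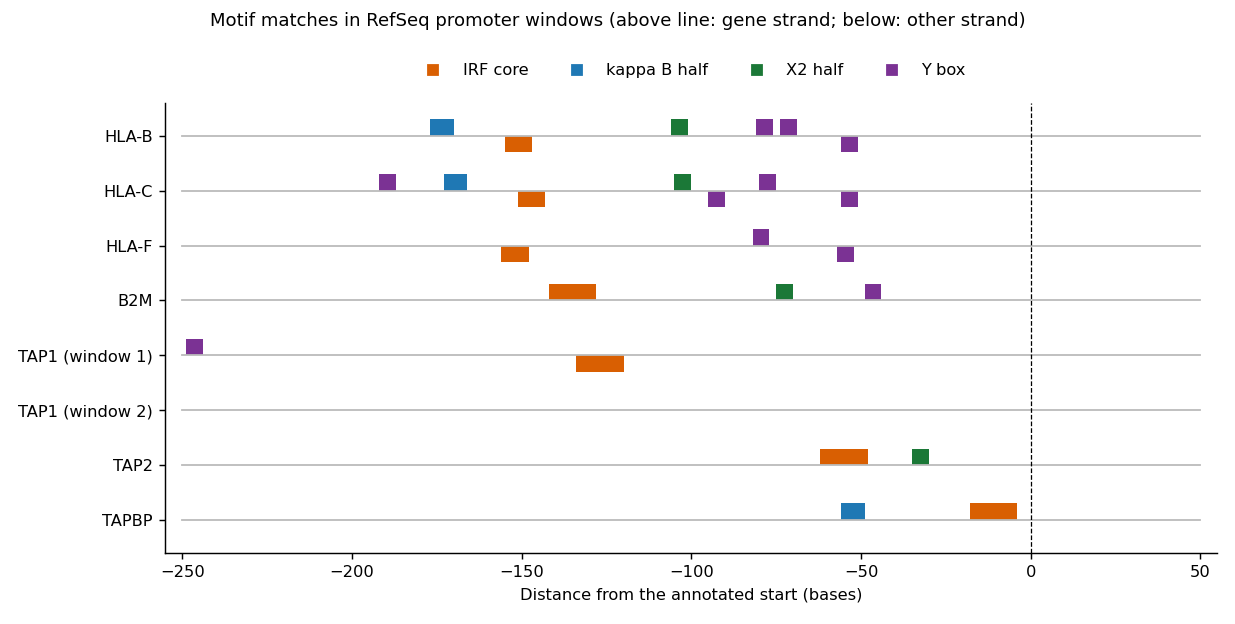
Positions of the 4 motifs in the promoter windows of 7 members (2 windows for TAP1), as distance in bases from the annotated start (dashed line). Boxes above a line lie on the gene's strand and boxes below on the other strand; the IRF core is present in each row except the second TAP1 window.

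The second question was whether Dex alone moved these genes. In MM1S the members divided. HLA-F, HLA-B, B2M and HLA-C fell, to 0.585, 0.658, 0.777 and 0.825 of the vehicle level, TAP1 rose to 1.15 times it, and HLA-E, TAP2, TAPBP and NLRC5 were not called. This is 4 of 9 members called lower and 1 called higher, where 21.5% of all genes tested were called lower and 20.8% higher. The members' median log2 fold change was −0.11 against 0.01 over all genes. Their share of counts was 0.263% ± 0.0106 with Dex. The plasma cell markers moved in the same comparison, with 1 of 8 called higher and 4 lower, and their summed level was 4705 to 4754 CPM with vehicle and 3789 to 3994 CPM with Dex. The 5 markers of stroma or epithelium summed to 7.38 to 10.5 CPM with vehicle and 0.933 to 1.31 CPM with Dex, mostly PECAM1 (log2 fold change −3.76, adjusted p = 6.96e-09), which plasma cells can also express. The part of these shifts in the members' changes was not tested.

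HLA-F was at 10.9 and 13.1 CPM in the MM1S Dex libraries, below both vehicle libraries (log2 fold change −0.77, SE 0.10, adjusted p = 4.71e-06). HLA-B was at 263 and 322 CPM (log2 fold change −0.60, SE 0.080, adjusted p = 6.97e-06) and B2M at 971 and 1019.8 CPM (log2 fold change −0.36, SE 0.074, adjusted p = 0.000634), each without overlap with vehicle, as in 33.8% of all genes tested. HLA-C was at 123 and 147 CPM (log2 fold change −0.28, SE 0.095, adjusted p = 0.0262). Its call was lost without the second vehicle library (adjusted p = 0.165) or the first Dex library (adjusted p = 0.242). TAP1 was at 96.5 and 110.3 CPM (log2 fold change 0.20, SE 0.076, adjusted p = 0.0398), above both vehicle libraries. That call was lost without either vehicle library (adjusted p = 0.207 and 0.0719), without the second Dex library (adjusted p = 0.426), with library size scaling (adjusted p = 0.055) and when the other groups were left out of the fit (adjusted p = 0.084).

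HLA-E was at 279 and 314 CPM, TAP2 at 98.8 and 109 CPM, TAPBP at 649 and 669 CPM and NLRC5 at 8.03 and 8.87 CPM with Dex, and each overlapped its vehicle libraries. The 95% interval of the log2 change was −0.14 to 0.094 for TAPBP and −0.23 to 0.22 for NLRC5, so a change in NLRC5 of the size seen in HLA-B lay outside it. HLA-E passed when the second Dex library was left out, at −0.20 (adjusted p = 0.0333, against 0.195 with all libraries).

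In MM1R none of the 9 members was called with Dex, and neither was any other gene, a background of 0% by edgeR. DESeq2 also called 0 genes. With no filter on low counts edgeR called 30 of 20096 genes, without the first vehicle library 9 and without the first Dex library 1, and no member was among them. At an unadjusted p under 0.05 there were 395 of 14215 genes and 0 of the 9 members. HLA-B was at 419 and 452 CPM, B2M at 1349 and 1420.3 CPM, HLA-F at 15.995 and 16.8 CPM and TAP1 at 99.2 and 108 CPM in the MM1R Dex libraries. HLA-C was at 139 and 156 CPM, HLA-E at 195 and 203 CPM, TAP2 at 131 and 137 CPM, TAPBP at 565 and 583 CPM and NLRC5 at 14.9 and 15.6 CPM. The 95% intervals were −0.22 to 0.11 for HLA-B and −0.30 to 0.094 for HLA-F. All 9 fitted changes were below 0, and their median was −0.07, against −0.012 over all genes. Both Dex libraries lay below both vehicle libraries in HLA-E, HLA-F, B2M, TAP1, TAP2, TAPBP and NLRC5, and overlapped them in HLA-B and HLA-C. Over all genes tested, both Dex libraries lay below both vehicle libraries in 19%.

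The line difference in the Dex response was called for 4 of 9 members. It was higher in MM1R than in MM1S for HLA-F (log2 difference 0.67, SE 0.14, adjusted p = 0.00113), HLA-B (log2 difference 0.55, SE 0.11, adjusted p = 0.00124) and B2M (log2 difference 0.29, SE 0.11, adjusted p = 0.0491), and lower for TAP1 (log2 difference −0.31, SE 0.11, adjusted p = 0.036). Of all genes tested, 15% were called in the first direction and 13.1% in the second. The calls of B2M and TAP1 were lost without 7 and 6 of the 8 libraries, respectively, left out 1 at a time; those of HLA-F and HLA-B were kept without any one of them.

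In the same MM1S comparison class II, which presents extracellular peptides to CD4+ T cells, was also lower. Of 10 tested class II genes 9 were called lower with Dex and none higher, with a median of −1.51, where 21.5% of all genes were called lower. The alpha chain HLA-DRA had a log2 fold change of −1.64 (adjusted p = 1.35e-12), the invariant chain CD74 of −1.11 (adjusted p = 8.28e-11), HLA-DPA1 of −1.93 (adjusted p = 8.6e-11), HLA-DMA of −1.38 (adjusted p = 1.99e-09) and the class II transactivator CIITA of −1.33 (adjusted p = 5.44e-09). With TAK-981 in MM1S 3 class II genes were called higher (HLA-DOB, HLA-DMB and CD74) and CIITA lower, and in MM1R 7 were called higher. TAK-981 had 25.2% of all genes tested called higher in MM1S and 25.8% in MM1R. HLA-DOB, whose interval overlaps that of TAP2, had changes of 0.64 (adjusted p = 0.000278) and 1.22 (adjusted p = 4.51e-08).

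Among the 14 regulators, 3 fell and 2 rose with Dex in MM1S. For this and the following lists, the shares over all genes tested were 21.5% called lower and 20.8% higher. RFX5, the DNA-binding subunit of the X box factor used by both class I and class II promoters, had a log2 fold change of −0.46 (adjusted p = 9.2e-06) and RFXAP of −0.54 (adjusted p = 0.00639). NFKB1 rose by 0.30 (adjusted p = 0.000542) and RELA by 0.29 (adjusted p = 0.00203). In peptide loading and trimming 2 genes rose and 7 fell. ERAP2 rose by 1.21 (adjusted p = 4.67e-11), the largest change of that list, while CANX had −0.63 (adjusted p = 1.56e-08), PDIA3 −0.57 (adjusted p = 1.44e-06), SEC61A1 −0.43 (adjusted p = 3.03e-06) and HSPA5 −0.53 (adjusted p = 9.87e-05). In peptide supply 5 of 12 genes fell (TPP2, PSMB6, POMP, PSME2 and LAP3) and none rose. Among the 19 tested interferon-induced genes 4 rose and 5 fell, which is near the shares over all genes, with a median of 0.028.

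The third question was what the combination did. In MM1S each of the 9 members was called lower with combo than with TAK-981 alone, where 20.6% of all genes tested were called lower. The members' share of counts was 0.397% ± 0.0052 with combo. HLA-B was at 645 and 685 CPM (log2 fold change −0.69, SE 0.079, adjusted p = 1.68e-06 against TAK-981), B2M at 1674 and 1432 CPM (log2 fold change −0.66, SE 0.075, adjusted p = 1.1e-06) and HLA-C at 156 and 171 CPM (log2 fold change −0.63, SE 0.094, adjusted p = 5.36e-05). TAPBP was at 717 and 808 CPM (log2 fold change −0.48, adjusted p = 1.77e-06), TAP1 at 101 and 108 CPM (log2 fold change −0.47, adjusted p = 7.77e-05) and HLA-F at 37.0 and 36.4 CPM (log2 fold change −0.46, adjusted p = 0.00027). HLA-E was at 445 and 472 CPM (log2 fold change −0.34, adjusted p = 0.000344), NLRC5 at 16.04 and 14.9 CPM (log2 fold change −0.29, adjusted p = 0.018) and TAP2 at 105 and 119 CPM (log2 fold change −0.28, adjusted p = 0.00366). Both combo libraries lay below both TAK libraries in all 9 genes, as they did in 32.5% of all genes tested. Other lists were lower in the same comparison. Of the 8 reference genes 6 were called lower and none higher (median −0.31), and of the 8 plasma cell markers 6 lower and none higher (median −0.50), with summed levels of 4340 to 4546 CPM under TAK-981 and 3370 to 3524 CPM with combo. The class II genes had 9 of 10 called lower (median −1.72), against a median of −0.47 for the 9 members. PECAM1 (−2.24), COL1A1 (−1.44) and CD3E (−1.73) were also lower. The part of these shifts in the members' fall was not tested. The NLRC5 call was lost without the second TAK library (adjusted p = 0.115) or the second combo library (adjusted p = 0.138), with DESeq2 (adjusted p = 0.0691) and when the other groups were left out of the fit (adjusted p = 0.174). The TAP2 call was lost without the first combo library (adjusted p = 0.0746) and when the other groups were left out of the fit (adjusted p = 0.0727).

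Against vehicle, the MM1S combo still raised 8 of the 9 members, against a background of 30.8% called higher. NLRC5 rose by 0.86 (adjusted p = 4.62e-07), HLA-F by 0.84 (adjusted p = 1.82e-07), HLA-B by 0.58 (adjusted p = 4.6e-06) and HLA-E by 0.52 (adjusted p = 9.2e-07). Smaller rises were called for B2M (log2 fold change 0.28, adjusted p = 0.0035), TAP1 (log2 fold change 0.21, adjusted p = 0.0217), TAPBP (log2 fold change 0.19, adjusted p = 0.00761) and TAP2 (log2 fold change 0.17, adjusted p = 0.0461). The count dropped to 5 without the first vehicle library or without the second combo library, which in each case ended the calls of TAP1, TAP2 and TAPBP. B2M lost its call without the first combo library (adjusted p = 0.105), and TAP2 without the second vehicle library (adjusted p = 0.224), with RLE scaling (adjusted p = 0.0668), with DESeq2 (adjusted p = 0.0797) and with no filter on low counts (adjusted p = 0.0806). HLA-C was not called, at 0.0037 (adjusted p = 0.976) with a 95% interval of −0.20 to 0.20, and its sign changed with the scaling.

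**Figure D5:**
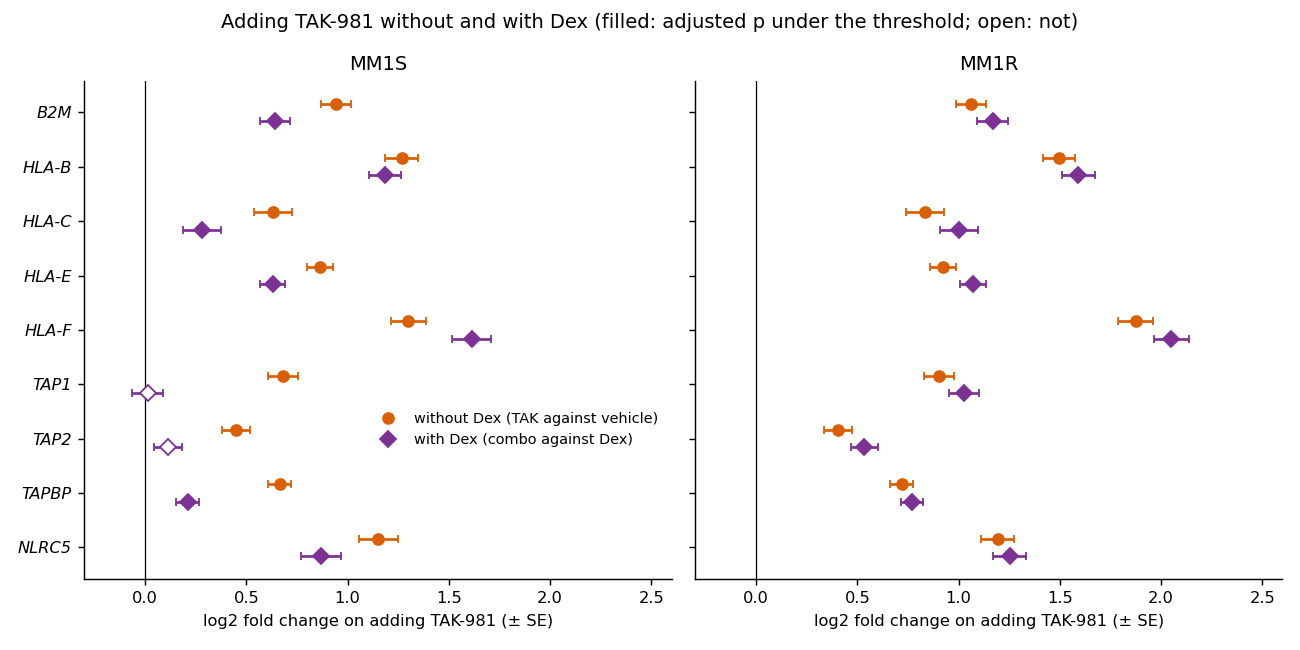
Log2 fold change on adding TAK-981 (horizontal axis, ± SE) without Dex (circles, TAK against vehicle) and with Dex (diamonds, combo against Dex) in MM1S (left) and MM1R (right). Filled symbols passed the adjusted p threshold of 0.05; in MM1S the values of TAP1 and TAP2 with Dex lie near 0 and are open, and in MM1R all 18 are filled.

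The effect of adding TAK-981 to Dex is given first. It does not test whether TAK-981 acted differently with Dex present, for which the interaction below was used. In MM1S adding TAK-981 to Dex raised 7 of 9 members, where 22.2% of all genes tested were called higher. HLA-F rose by 1.61 (adjusted p = 1.75e-10), HLA-B by 1.19 (adjusted p = 1.17e-09), NLRC5 by 0.87 (adjusted p = 1.06e-06), B2M by 0.64 (adjusted p = 1.29e-06), HLA-E by 0.63 (adjusted p = 1.97e-07), HLA-C by 0.28 (adjusted p = 0.022) and TAPBP by 0.21 (adjusted p = 0.00483). The transporter genes were not called, at 0.012 (adjusted p = 0.913) for TAP1 and 0.11 (adjusted p = 0.193) for TAP2, but TAP2 was called higher with upper-quartile scaling, at 0.20 (adjusted p = 0.0201). The HLA-C call was lost without the first Dex library (adjusted p = 0.219) or the second combo library (adjusted p = 0.17). The TAPBP call was lost without the second combo library (adjusted p = 0.0959) and when the other groups were left out of the fit (adjusted p = 0.0598).

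The interaction of TAK-981 with Dex, the log2 change with TAK-981 in the presence of Dex minus that in its absence, was called below 0 for 3 of 9 members in MM1S, where 9.48% of all genes tested were. These 3 were the peptide loading genes, TAP1 at −0.67 (SE 0.11, adjusted p = 0.000387), TAPBP at −0.46 (SE 0.079, adjusted p = 0.000815) and TAP2 at −0.34 (SE 0.10, adjusted p = 0.0276). TAP1 and TAPBP kept their calls without any one of the 8 MM1S libraries, whereas TAP2 lost its call without 5 of them and under 3 other settings. For HLA-B the interaction was −0.081 (adjusted p = 0.672) with a 95% interval of −0.32 to 0.15. B2M (interaction −0.30, adjusted p = 0.0637), HLA-E (interaction −0.23, adjusted p = 0.0866), HLA-C (interaction −0.35, adjusted p = 0.0903) and NLRC5 (interaction −0.28, adjusted p = 0.184) had negative values that were not called, and HLA-F a positive one (interaction 0.31, adjusted p = 0.115). With no filter on low counts 5 members were called, without the first TAK library 5 and without the first Dex library 6. Over all genes the calls in either direction rose too, from 2125 of 14215 to 2679 of 20096, 3724 of 14552 and 2983 of 14565, respectively. Among the regulators the same interaction was called for IRF1 (interaction −0.43, adjusted p = 0.00474) and RFX5 (interaction −0.30, adjusted p = 0.0273). In peptide loading it was called below 0 for CALR (interaction −0.61, adjusted p = 0.0011), TAPBPL (interaction −0.42, adjusted p = 0.0111) and BCAP31 (interaction −0.50, adjusted p = 0.0396) and above 0 for ERAP1 (interaction 0.32, adjusted p = 0.0205). No gene of peptide supply was called.

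In MM1R no effect of adding Dex to TAK-981 was called. None of the 9 members differed by call between combo and TAK-981, where 0% of all genes tested were called by edgeR and 0 genes by DESeq2; 214 genes and 0 members had an unadjusted p under 0.05. With no filter edgeR called 9 genes, with only the groups compared 3 and without the first combo library 1, and no member was among these. HLA-B was at 1315 and 1312 CPM, B2M at 3176 and 3046 CPM, HLA-F at 67.9 and 68.1 CPM and HLA-C at 283 and 308 CPM. HLA-E was at 421 and 416 CPM, TAP1 at 212 and 212 CPM, TAP2 at 196 and 191 CPM, TAPBP at 988 and 971 CPM and NLRC5 at 36.0 and 36.8 CPM. The 95% intervals of the log2 difference ran from −0.075 to 0.32 for HLA-C, the widest, and from −0.14 to 0.10 for TAPBP, the narrowest.

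Against vehicle the MM1R combo raised all 9 members, with 24.8% of all genes called higher, and against Dex it raised all 9, with 23.1%. The changes against vehicle ran from 0.48 for TAP2 to 1.95 for HLA-F, and those against Dex from 0.53 to 2.05 for the same genes. The members' share of counts was 0.650% ± 0.0067 with combo and 0.299% ± 0.0066 with Dex. The interaction of TAK-981 with Dex was not called for any of the 9 in MM1R, nor for any gene (0% by edgeR, 0 genes by DESeq2, and 400 genes with an unadjusted p under 0.05, of which 0 were members). With no filter edgeR called 19 genes, and without the first Dex or the first combo library 1, again with no member among them. For TAP1 it was 0.12 with an interval of −0.10 to 0.34, which did not reach the value of TAP1 in MM1S.

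The lines were last compared without treatment. In vehicle-treated cells 4 members were higher in MM1R, against a background of 25.6%, and 2 were lower, against 22.6%. NLRC5 differed most, at 0.89 (SE 0.10, adjusted p = 5.97e-07), followed by TAP2 (log2 difference 0.48, SE 0.068, adjusted p = 1.72e-05) and TAP1 (log2 difference 0.31, SE 0.075, adjusted p = 0.00209). HLA-E was lower in MM1R at −0.58 (SE 0.063, adjusted p = 8.18e-07). B2M, at 0.19 (adjusted p = 0.0425), and TAPBP, at −0.15 (adjusted p = 0.0304), were called, but each lost its call when any one of the 4 vehicle libraries was left out. HLA-B (log2 difference 0.029, adjusted p = 0.784), HLA-C (log2 difference −0.10, adjusted p = 0.406) and HLA-F (log2 difference −0.22, adjusted p = 0.0561) were not called. HLA-F was called lower with library size scaling (adjusted p = 0.012), with upper-quartile scaling (adjusted p = 0.0154) and when only the vehicle groups were fitted (adjusted p = 0.00697), and HLA-C in the last of these (adjusted p = 0.0124). Of the 8 plasma cell markers 6 were higher in MM1R and none lower (median 0.26), among them SDC1 (0.86), XBP1 (0.61) and CD38 (0.37). PECAM1 was lower (−1.69) and CD3E higher (0.55), and the part of these differences in those of the members was not tested. Of 10 class II genes 9 were lower in MM1R than in MM1S and none higher, with a median of −1.27.

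Ordered by level within MM1S, TAK, combo, vehicle and Dex followed each other without overlap between neighbours for HLA-B, HLA-F and B2M. Over all genes tested, both combo libraries lay below both TAK libraries in 32.5% and above both vehicle libraries in 42.7%. Both Dex libraries lay below both vehicle libraries in 33.8%, and the share with the whole order was not counted. For HLA-C combo overlapped vehicle, and for HLA-E, TAPBP and NLRC5 vehicle overlapped Dex. For TAP1 the order was TAK, combo, Dex and vehicle, with combo and Dex overlapping, and for TAP2 combo overlapped Dex and Dex overlapped vehicle. Within MM1R TAK and combo formed the upper pair and vehicle and Dex the lower pair in all 9 genes. In the lower pair both Dex libraries lay below both vehicle libraries except in HLA-B and HLA-C, where they overlapped. In the upper pair TAK and combo overlapped in B2M, TAP1 and NLRC5. No difference within either pair was called. Of all genes tested in MM1R, 40.3% had both TAK libraries above both vehicle libraries, and 40.2% both combo libraries. The share with both pairs was not counted.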

How the data were processed

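The deposited table holds raw counts per gene for 16 libraries, which the authors made from rRNA-depleted (Ribo-Zero) total RNA. The submitters' processing notes name bcl2fastq 2.18.0.12, STAR 2.6.0, HTSeq 0.6.0, edgeR 3.28.1 and hg19, without role or order; strand and multi-mapping settings are not given in the sources used here. Libraries were grouped by their labels.

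Genes were filtered with filterByExpr, scaled by TMM and fitted with edgeR 4.0.16 (R 4.3.3, limma 3.58.1), using 1 term per group over all 16 libraries (8 residual degrees of freedom). Contrasts were tested with the robust quasi-likelihood F test. P-values were adjusted by Benjamini-Hochberg over the 14215 genes tested, with a threshold of 0.05. Log2 CPM used a prior count of 2, and RPKM is CPM divided by the table's gene length. Every adjusted p printed is edgeR's unless DESeq2 (1.42.0) is named; intervals are 95%. The fit was also run on simulated counts in which few genes were changed, equally up and down, in a single group. Such counts could not show a fault of the scaling where many genes move.

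Alternatives were RLE, upper-quartile and library-size scaling, no filter, a replicate block, DESeq2, only the groups compared, and each library left out, which leaves a lone library assumed to vary like the other groups. Members, lists and motifs were chosen with earlier results of these data known. From a list, at most 5 genes past the threshold per comparison were named, by smallest adjusted p; counts of 5 or fewer and genes at the floor are also named. Genes of like pattern were the 5 of highest Pearson r. Some genes that these rules pick are not reported here. Promoter sequences are from RefSeq (GRCh38.p14).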

Additional observations from a re-analysis of the deposited data

Results flagged for a closer look

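In 5 instances a member's response differed between MM1R and MM1S by the interaction test (edgeR, adjusted over all genes tested). The response to TAK-981 was larger in MM1R for HLA-F, by 0.58 on the log2 scale (adjusted p = 0.011). The response to Dex differed for HLA-B by 0.55 (adjusted p = 0.00124), for HLA-F by 0.67 (adjusted p = 0.00113), for B2M by 0.29 (adjusted p = 0.0491) and for TAP1 by −0.31 (adjusted p = 0.036). With TAK-981 both libraries of each line moved up; with Dex the called differences of HLA-B, HLA-F and B2M accompany a fall in MM1S, and that of TAP1 a rise in MM1S. As given above, the calls of HLA-F with TAK-981 and of B2M and TAP1 with Dex were lost when some single libraries were left out. Of all genes tested, 3.19% were called higher for the TAK-981 response. For the Dex response, 15% were called higher and 13.1% lower. No cause was tested.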

How the results depend on the processing

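Of 135 values (9 members in 15 comparisons), 79 were called. Over 901 recomputed values of these 79, 836 kept their direction and call, 65 lost the call and 0 reversed. The number of members called in the interaction of TAK-981 with Dex in MM1S was 3, but 5 with no filter on low counts and 7 with the replicate block, under which the calls over all 14215 genes went from 2125 to 3579. The line difference in the TAK-981 response went from 1 to 3 members with the replicate block, and from 592 to 2061 over all genes. With 1 library left out, the members called ran from 3 to 5 for Dex in MM1S, 5 to 7 for combo against vehicle in MM1S, 2 to 6 for TAK-981 by Dex in MM1S, 0 to 1 for the line difference in the TAK-981 response and 2 to 3 for that in the Dex response. The replicate numbers were not shown to pair samples: deviations of equal numbers correlated at 0.016 to 0.26 in MM1S and −0.013 to 0.082 in MM1R, over 6 pairs of groups each. Upper-quartile scaling put the median log2 fold change of all genes at 0.13 for combo against vehicle in MM1S, from 0.037 with TMM, and HLA-C stayed uncalled there. It also moved the split of calls over all genes, from 3666 higher and 3926 lower to 4438 and 3144 for TAK-981 in MM1R, and from 3159 and 3606 to 4176 and 2788 for combo against Dex in MM1S. For TAK-981 by Dex in MM1S the split was 777 higher and 1348 lower, 914 and 1001 with upper quartile and 1033 and 908 with library size only.

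Values that changed sign were all uncalled. HLA-C with combo against vehicle in MM1S became −0.010 with RLE, −0.0017 with library size only, −0.0040 with no filter, −0.010 with DESeq2 and −0.012 with only the groups compared. HLA-B in MM1R against MM1S became −0.035 with library size only and −0.035 with upper quartile. With library size only, the line difference of TAP2 with TAK-981 became 0.0035 and that of NLRC5 with Dex 0.0067. With 1 library left out the ranges were −0.025 to 0.12 (TAP2) and −0.086 to 0.065 (NLRC5) for Dex in MM1S, −0.13 to 0.035 (HLA-C) for Dex in MM1R, and −0.065 to 0.067 (HLA-C) for combo against vehicle and −0.084 to 0.11 (TAP1) for combo against Dex in MM1S. For combo against TAK-981 in MM1R they were −0.00046 to 0.060 (B2M), −0.023 to 0.054 (TAP1) and −0.034 to 0.073 (NLRC5). For HLA-B they were −0.22 to 0.078 for TAK-981 by Dex in MM1S and −0.0066 to 0.066 for MM1R against MM1S. For the line difference in the TAK-981 response they were −0.087 to 0.0025 (TAP2) and −0.012 to 0.096 (NLRC5), and in the Dex response −0.079 to 0.10 (HLA-E) and −0.11 to 0.046 (NLRC5). The cause was not tested. Each SE rests on 1 estimate of the spread per gene over all groups, so unequal spread between groups does not show in it. For B2M with TAK-981 the SE was 0.075 in both lines. The SD of its TAK libraries was 294 CPM in MM1S and 51.9 CPM in MM1R. With 2 libraries per group the SE of the TAK-981 response in MM1S ran from 0.056 (TAPBP) to 0.10 (NLRC5). Differences of about that size or less could not be told from 0. Larger ones also went uncalled, such as the TAK-981 by Dex interaction of B2M in MM1S, at −0.30 (SE 0.11, adjusted p = 0.0637).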

Other observations

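Over the 16 libraries, which share their treatments and lines, the genes whose log2 CPM was most like the mean profile of the 9 members included SNORA3B (Pearson r = 0.991), PCED1B (0.985), VPS26B (0.982) and TRIM69 (0.982). The genes most like NLRC5 were DOK3 (0.980), OAS3 (0.980), ARHGEF12 (0.976), LAP3 (0.974) and BLNK (0.972). These are descriptions over 16 libraries that fall into treatment groups.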
